A study of Homo sapiens with 12 samples.

Results

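The genes followed here were 9 receptor tyrosine kinases outside the ERBB family (AXL, MET, MST1R, IGF1R, INSR, FGFR2, FGFR3, EPHA2 and DDR1) and GAS6, the ligand of AXL. They were matched by symbol to the Ensembl identifiers of the count files. All 10 were found among the 58051 genes of the files, and all 10 passed the filter on low counts in every comparison. The study grew models of head and neck squamous cell carcinoma with acquired resistance to 2 inhibitors, erlotinib, which blocks EGFR, and afatinib, which blocks the ERBB family, and sequenced their poly(A) RNA. It held 6 groups of 2 libraries each, 12 in all: FaDu parental, FaDu AfaR and FaDu ErlR cells, from a hypopharyngeal carcinoma line, and Cal27 parental, Cal27 AfaR and Cal27 ErlR cells, from a tongue carcinoma line. AfaR cells had been selected in rising concentrations of afatinib and ErlR cells in rising concentrations of erlotinib, and the study's methods had resistant cells kept off drug for a day before use. All groups carry the genotype label WT. Each model is 1 resistant population, so a change between a model and its parental line cannot be told apart from drift of that population. Below, the afatinib or erlotinib effect is shorthand for the change of an AfaR or ErlR population from its parental line. It is not a measured response to added drug. The labels call the libraries biological repeats and say no more of their origin, so p-values measure the spread between these libraries only.

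Receptor tyrosine kinases sit in the cell membrane, bind a ligand outside the cell, pair up and phosphorylate each other, and so start the RAS and PI3K pathways that ERBB receptors also use. When ERBB signalling is blocked, a carcinoma cell can keep these pathways running through another receptor, which is why such kinases are called bypass receptors. AXL, MET, IGF1R and FGF receptors are the ones most often named in squamous carcinoma under EGFR inhibitors.

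Library depth ran from 16334937 to 23399259 counts on genes. FaDu parental and FaDu AfaR libraries had at least 20156109, and those of FaDu ErlR and the Cal27 groups at most 16689855. Levels are given as CPM, counts scaled to the library total on genes, after TMM normalization, which sets a common scale over the 12 libraries, and levels of different genes are compared only as CPM per kilobase of exon. Every library also held ERCC spike-ins, control RNAs added during library preparation, which offer another scale. Markers of squamous epithelium (KRT5, KRT14, TP63, EPCAM, CDH1, KRT17 and SFN) were all above 1 CPM in both libraries of 5 groups. In Cal27 AfaR 6 of the 7 were, and their summed level was 877 to 975 CPM, compared with 3829 to 4896 CPM in Cal27 parental cells. A list of 7 fibroblast markers summed to 315 to 326 CPM in Cal27 AfaR, to 30.1 to 41.6 CPM in Cal27 parental cells and to at most 10.5 CPM elsewhere. Most of the Cal27 AfaR sum was COL1A1, with 266 and 273 CPM. In bulk RNA, more cells that carry a transcript and more transcript per cell cannot be told apart. The part of these marker shifts in the Cal27 AfaR values below was not tested. Leukocyte markers summed to between 5.02 and 7.64 CPM in every library. Endothelial markers summed to 30.2 to 37.4 CPM in Cal27 AfaR, to 31.7 to 32.7 CPM in Cal27 parental cells and were lower in Cal27 ErlR, at 2.68 to 6.48 CPM. They summed to 6.60 to 20.7 CPM in FaDu AfaR, to 3.50 to 6.03 CPM in FaDu parental and to 3.20 to 3.26 CPM in FaDu ErlR cells. CDH5 was the largest of them in every group, and the part of these shifts in the values of the 10 genes was not tested.

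**Figure D1:**
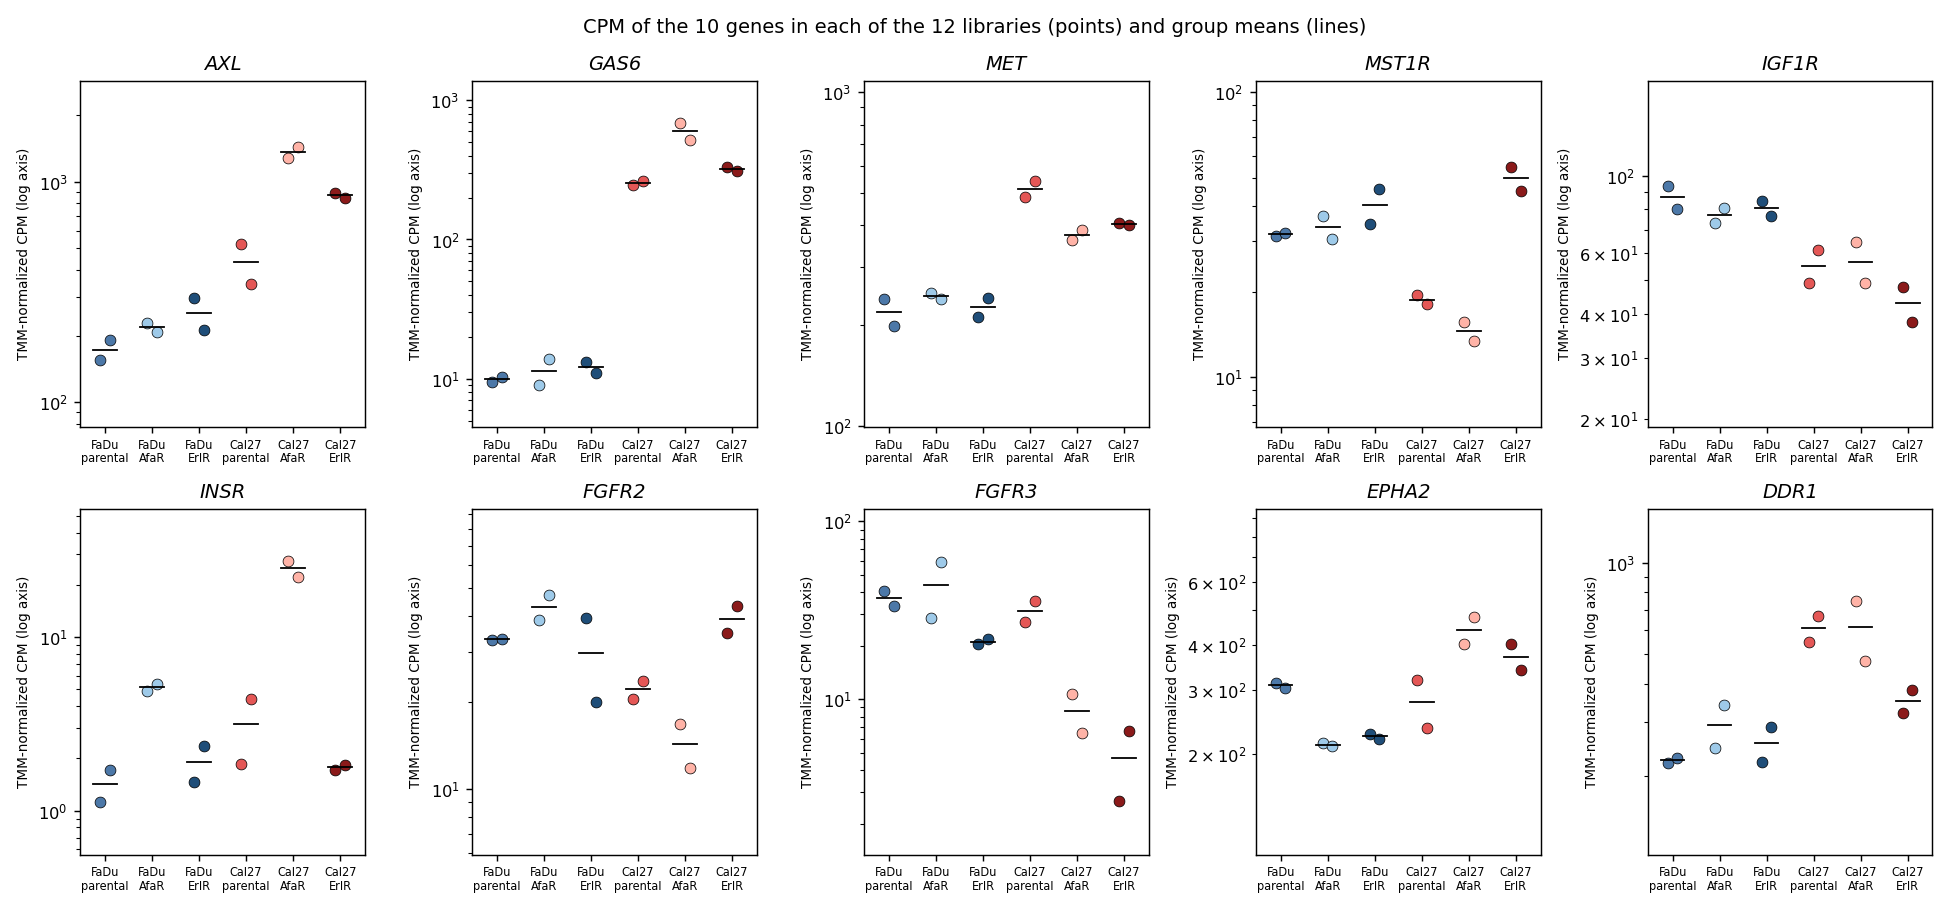
CPM of each of the 10 genes (y axis, log scale, TMM-normalized) in the 6 groups (x axis). Points are libraries and lines are group means (n = 2). GAS6 lies near 10 CPM in all FaDu libraries and above 240 CPM in all Cal27 libraries, and INSR stands highest in Cal27 AfaR.

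The promoters of the 4 genes on which the model comparisons turn most are shown first, since AXL, GAS6 and INSR rose together in Cal27 AfaR while FGFR3 fell in both Cal27 models. Each is the stretch of 250 bases before the RefSeq start of the gene on GRCh38.p14, 5′ to 3′ on the strand of the gene, and capitals mark every match to GGGCGG or its reverse complement, the core of the SP1 site. The windows are chr19:41218973-41219222 on the plus strand for AXL, chr13:113864077-113864326 on the minus strand for GAS6, chr19:7294415-7294664 on the minus strand for INSR and chr4:1793043-1793292 on the plus strand for FGFR3.
AXL: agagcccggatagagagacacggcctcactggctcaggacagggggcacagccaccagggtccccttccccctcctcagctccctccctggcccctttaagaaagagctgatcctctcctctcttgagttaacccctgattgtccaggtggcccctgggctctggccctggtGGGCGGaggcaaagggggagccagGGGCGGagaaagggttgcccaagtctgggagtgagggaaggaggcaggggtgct
GAS6: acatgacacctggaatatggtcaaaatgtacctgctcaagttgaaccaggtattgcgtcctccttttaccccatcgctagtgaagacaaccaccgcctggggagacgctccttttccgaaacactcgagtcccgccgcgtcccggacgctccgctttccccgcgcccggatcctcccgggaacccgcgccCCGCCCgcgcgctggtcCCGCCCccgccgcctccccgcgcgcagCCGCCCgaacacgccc
INSR: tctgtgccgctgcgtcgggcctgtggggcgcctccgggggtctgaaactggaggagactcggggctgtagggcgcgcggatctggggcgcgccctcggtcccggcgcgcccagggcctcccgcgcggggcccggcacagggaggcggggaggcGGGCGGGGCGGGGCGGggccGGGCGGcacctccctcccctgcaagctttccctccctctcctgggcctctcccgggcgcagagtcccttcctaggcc
FGFR3: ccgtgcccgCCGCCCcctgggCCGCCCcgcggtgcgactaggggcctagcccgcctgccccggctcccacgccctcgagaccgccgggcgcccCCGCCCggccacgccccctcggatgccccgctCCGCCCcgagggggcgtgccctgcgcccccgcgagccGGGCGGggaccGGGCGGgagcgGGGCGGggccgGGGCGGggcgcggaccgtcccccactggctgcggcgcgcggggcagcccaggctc
The searched letters were found 2 times in AXL, 3 times in GAS6, 4 times in INSR, where matches overlap, and 8 times in FGFR3. Over the same windows of all 10 genes, 9 held at least 1 match and DDR1 held none, and 42.6% of the 35116 RefSeq promoter windows of this length held one. The AP-1 core TGANTCA, searched on both strands, was in none of the 10 windows and in 6.6% of all windows. The TEAD core GGAATG was in the EPHA2 window alone among the 10, and in 11.9% of all windows. The GC content of the 10 windows lay between 60.4% (DDR1) and 86.8% (FGFR3), all above the median of 58.0% over all windows. The RefSeq start of DDR1 lies 4549 bases from the first base of the gene in the count files, that of IGF1R 432 bases and that of INSR 380 bases, so these windows may not be the start in use.

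Across the 4 resistant models, 15 of the 40 pairs of gene and model passed the test, and no gene passed in the same direction in all 4. A gene passed at an adjusted p under 0.05 from edgeR's quasi-likelihood test, adjusted over all genes by the Benjamini-Hochberg method. The FaDu models moved little. In FaDu AfaR 1 of the 10 genes was higher (INSR) and 1 lower (EPHA2), where 10.4% of all 15092 genes tested were higher and 7.49% lower. With a log2 fold change over 1 in size as well, the counts were 1 and 0, against 6.48% and 0.954% of all genes. In FaDu ErlR none was higher and 1 was lower (EPHA2), against 2.58% and 1.6% of all genes. None passed with a change over 1 in either direction, where 1.54% and 0.504% did. At an unadjusted p under 0.05 the FaDu ErlR counts were 1 higher (AXL) and 2 lower (FGFR3 and EPHA2), and DESeq2 gave the same numbers, 1 and 2, after adjustment. Over all genes, in both directions together, DESeq2 passed 1119 of 15092 in this model and edgeR 631. The share of all genes at an unadjusted p is not given here. More genes passed in the Cal27 models. In Cal27 AfaR 4 genes were higher (INSR, AXL, GAS6 and EPHA2) and 3 lower (FGFR3, FGFR2 and MET), where 19.5% of 15269 genes were higher and 18.2% lower. Changes over 1 were seen in 3 that rose and 1 that fell (FGFR3), against 11.5% and 8.06%. In Cal27 ErlR 3 were higher (MST1R, AXL and FGFR2) and 2 lower (FGFR3 and DDR1), against 12.3% and 15.3%, and 1 rise (MST1R) and 1 fall (FGFR3) were over 1, against 3.56% and 9.92%. With 2 libraries a group, groups that do not overlap are common. The libraries of model and parental cells were apart for 5 of the 10 genes in FaDu AfaR (65% of all genes), for 5 in FaDu ErlR (53.7%), for 8 in Cal27 AfaR (72.1%) and for all 10 in Cal27 ErlR (67.4%). Since the 10 genes were chosen and not drawn, these counts are a description beside the background. The 10 genes had a median log2 fold change of 0.20 for AfaR and 0.10 for ErlR in FaDu, and of 0.03 for AfaR and -0.03 for ErlR in Cal27, and the median over all genes was within 0.03 of 0 in each. Both models of a line share its 2 parental libraries, so their values are given side by side and not as independent evidence.

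**Figure D2:**
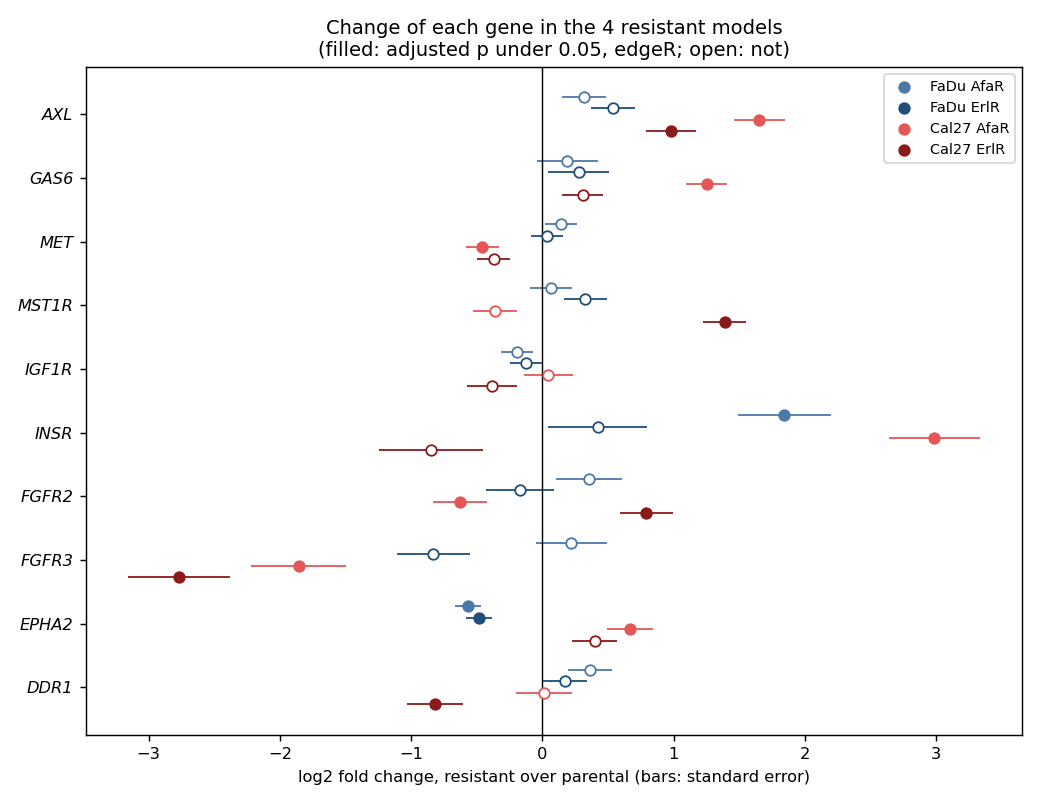
Log2 fold change of each gene (y axis) in the 4 models against the parental cells of the same line (x axis), with bars of 1 standard error. Filled points passed at an adjusted p under 0.05 and open points did not. The Cal27 models hold the widest values, from -2.77 for FGFR3 in Cal27 ErlR to 2.98 for INSR in Cal27 AfaR.

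AXL, a receptor of the TAM family, was higher in both Cal27 models, and its ligand GAS6 rose in Cal27 AfaR. AXL (ENSG00000167601, chromosome 19, 41219203 to 41261766, plus strand) stood at 521 and 344 CPM in the Cal27 parental libraries, at 1284 and 1430.5 CPM in Cal27 AfaR and at 886 and 847 CPM in Cal27 ErlR. The 3 groups did not overlap, with AfaR above ErlR and ErlR above parental. The rise was 1.65 on the log2 scale in Cal27 AfaR (standard error 0.192, adjusted p = 0.000218, edgeR) and 0.98 in Cal27 ErlR (standard error 0.189, adjusted p = 0.0054, edgeR). Both calls held in all 4 fits that left out 1 library, with ranges of 1.38 to 1.98 and 0.73 to 1.32. In FaDu the levels were lower throughout, with 155 and 192 CPM in parental, 229 and 209 CPM in AfaR and 296 and 213 CPM in ErlR cells. Every resistant FaDu library lay above both parental ones, but neither difference passed (log2 fold change 0.32, adjusted p = 0.208 in AfaR, and 0.54, adjusted p = 0.105 in ErlR, edgeR). The ErlR difference did pass with DESeq2 (adjusted p = 0.0398), without the filter on low counts (adjusted p = 0.00119), and when libraries were scaled to the ERCC spike-ins (1.05, adjusted p = 0.00239, or 0.56 above the median of all genes, which shifted by 0.49). The afatinib effect on AXL was smaller in FaDu than in Cal27 by 1.32 on the log2 scale (adjusted p = 0.00586 for the interaction, edgeR). For erlotinib the difference was -0.45 and did not pass (adjusted p = 0.277, edgeR).

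GAS6 (ENSG00000183087, chromosome 13, 113820549 to 113864067, minus strand) encodes the vitamin K-dependent protein that binds and activates AXL. In FaDu it had 9.52 and 10.3 CPM in parental, 9.02 and 13.9 CPM in AfaR and 13.2 and 11.0 CPM in ErlR cells. The corresponding libraries of Cal27 had 246 and 262 CPM in parental, 686 and 521 CPM in AfaR and 331 and 309 CPM in ErlR cells. Every Cal27 library therefore exceeded every FaDu library by more than an order of magnitude, and the Cal27 AfaR libraries were highest. GAS6 rose by 1.25 in Cal27 AfaR (standard error 0.158, adjusted p = 0.000345, edgeR), with 1.04 to 1.45 when a library was left out. In Cal27 ErlR the log2 fold change was 0.31 (adjusted p = 0.172), and in the FaDu models it was 0.19 and 0.27 (adjusted p = 0.596 and 0.552, edgeR). Under ERCC scaling GAS6 passed in FaDu ErlR (0.77, adjusted p = 0.0386, edgeR), at 0.29 above the shifted median of all genes. The afatinib effect was smaller in FaDu by 1.04 (adjusted p = 0.0165, edgeR), a call lost without FaDu parental replicate 2 (adjusted p = 0.0634), FaDu AfaR replicate 1 (0.0523) or Cal27 AfaR replicate 1 (0.0619), and under ERCC scaling (-0.89, adjusted p = 0.0599). An antisense gene, GAS6-AS1, shares 421 exonic bases with GAS6. It received 1414 counts over the 12 libraries compared with 41930 for GAS6, and the sources used here do not state whether strand was used in counting. Of the other TAM receptors, chosen here for their family and outside the rule for naming genes, TYRO3 had log2 fold changes from -0.33 to 0.14 and MERTK from -0.32 to 0.80 in the 4 models, and neither passed in any. PROS1, the other TAM ligand and chosen likewise, rose in FaDu AfaR (1.97), FaDu ErlR (1.51) and Cal27 AfaR (1.63) and fell in Cal27 ErlR by 1.65 (adjusted p = 0.00521, 0.0305, 0.00572 and 0.0168, edgeR).

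MET and MST1R form the family of scatter factor receptors. MET (ENSG00000105976, chromosome 7, 116672390 to 116798386, plus strand) binds hepatocyte growth factor. In Cal27 it was highest in parental cells, with 485 and 540.1 CPM, against 360.5 and 385 CPM in AfaR and 407 and 400.2 CPM in ErlR. The parental libraries lay above all 4 resistant ones. MET fell by 0.46 on the log2 scale in Cal27 AfaR (standard error 0.128, adjusted p = 0.0194, edgeR), while Cal27 ErlR had -0.37 and missed the threshold (adjusted p = 0.0567). It passed in Cal27 ErlR with DESeq2 (adjusted p = 0.0328) and with a filter of at least 10 counts in every library (adjusted p = 0.0391). The AfaR call was lost in 3 of the 4 fits that left out a library, without Cal27 parental replicate 2 (adjusted p = 0.140), AfaR replicate 1 (0.0937) or AfaR replicate 2 (0.0590). FaDu libraries lay between 199 and 251 CPM with overlapping groups, and the log2 fold changes were 0.14 and 0.03 (adjusted p = 0.441 and 0.908, edgeR). Under ERCC scaling MET passed in FaDu ErlR (0.52, adjusted p = 0.0167, edgeR), at 0.03 above the shifted median of all genes. HGF, the ligand of MET and chosen here for that reason, had at most 2.23 CPM in any library and passed in no model.

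MST1R (ENSG00000164078, chromosome 3, 49887002 to 49903873, minus strand) encodes RON, the receptor of macrophage-stimulating protein. It separated the resistant models of Cal27. The libraries had 19.4 and 18.1 CPM in Cal27 parental, 15.7 and 13.4 CPM in AfaR and 54.8 and 45.0 CPM in ErlR. ErlR lay above and AfaR below the parental cells without overlap. The rise in Cal27 ErlR was 1.39 (standard error 0.165, adjusted p = 0.000606, edgeR; 1.24 to 1.55 with a library left out), whereas AfaR had -0.36 (adjusted p = 0.117). The direct difference of AfaR from ErlR in Cal27 was -1.75 (adjusted p = 4.74e-05, edgeR). In FaDu the libraries lay between 30.6 and 45.7 CPM and neither model passed (0.06 and 0.33, adjusted p = 0.812 and 0.291). Under ERCC scaling MST1R passed in FaDu ErlR (0.80, adjusted p = 0.00412, edgeR), at 0.31 above the shifted median of all genes. The erlotinib effect was smaller in FaDu than in Cal27 by 1.07 (adjusted p = 0.00854, edgeR), and passed in all 8 fits that left out a library but not under ERCC scaling (-0.62, adjusted p = 0.0705). The genes around MST1R on chromosome 3 also moved in Cal27 ErlR, where 10 of the 20 nearest genes tested were higher and 1 lower, against 12.3% and 15.3% of all genes, with a median log2 fold change of 0.57.

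INSR, the insulin receptor, was the least abundant of the 10 genes in the parental cells and had the largest rise. INSR (ENSG00000171105, chromosome 19, 7112255 to 7294034, minus strand) had 1.12 and 1.72 CPM in the parental FaDu libraries, and AfaR had 4.90 and 5.39 CPM, which rest on 23, 33, 101 and 131 reads. FaDu ErlR had 1.47 and 2.35 CPM, which overlapped with the parental cells. In Cal27 the levels were 1.86 and 4.43 CPM in parental, 27.5 and 22.3 CPM in AfaR and 1.72 and 1.83 CPM in ErlR cells. The Cal27 parental levels rest on 32 and 76 reads. The AfaR libraries stood apart from all other groups in both lines. The rise was 1.84 in FaDu AfaR (standard error 0.353, adjusted p = 0.0116, edgeR) and 2.98 in Cal27 AfaR (standard error 0.347, adjusted p = 0.000218, edgeR), or 3.58-fold and 7.91-fold. The Cal27 AfaR call held with each library left out (2.49 to 3.74). In FaDu AfaR it was lost without FaDu parental replicate 1 (1.55, adjusted p = 0.102) or FaDu AfaR replicate 2 (1.77, adjusted p = 0.0584). The ErlR models had log2 fold changes of 0.42 in FaDu and -0.85 in Cal27 and did not pass (adjusted p = 0.573 and 0.141). Without Cal27 parental replicate 1 the Cal27 ErlR value was -1.32 and passed (adjusted p = 0.00946), as it did without the filter on low counts (-0.82, adjusted p = 0.0468). AfaR exceeded ErlR directly by 1.42 in FaDu (adjusted p = 0.0274) and by 3.83 in Cal27 (adjusted p = 5.21e-05, edgeR). The FaDu difference was lost in each of the 4 fits that left out a library (adjusted p from 0.0556 to 0.117). The afatinib effects in the 2 lines differed by -1.12, which did not pass (adjusted p = 0.158).

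IGF1R (ENSG00000140443, chromosome 15, 98648971 to 98964530, plus strand), the receptor of insulin-like growth factors and the closest relative of INSR, passed in no model. The FaDu libraries lay between 73.0 and 93.6 CPM and the Cal27 libraries between 37.9 and 64.3 CPM. The groups of a line overlapped apart from Cal27 ErlR, whose libraries of 48.0 and 37.9 CPM lay below the parental 49.2 and 61.0 CPM. Its log2 fold changes ran from -0.38 in Cal27 ErlR to 0.04 in Cal27 AfaR, with standard errors of 0.123 to 0.187 and adjusted p from 0.156 to 0.877.

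FGFR2 and FGFR3, receptors for fibroblast growth factors that epithelial cells carry, both fell in Cal27 AfaR and went different ways in Cal27 ErlR. FGFR3 (ENSG00000068078, chromosome 4, 1793307 to 1808872, plus strand) had 27.2 and 35.5 CPM in Cal27 parental, 10.7 and 6.50 CPM in AfaR and 2.68 and 6.66 CPM in ErlR. The resistant libraries were all below the parental ones, and AfaR and ErlR overlapped. FGFR3 fell by 1.86 in Cal27 AfaR (standard error 0.363, adjusted p = 0.00364, edgeR) and by 2.77 in Cal27 ErlR (standard error 0.386, adjusted p = 0.00127, edgeR). Both calls held in each fit that left out a library, with -2.27 to -1.53 and -3.54 to -2.25. In FaDu the parental libraries had 40.6 and 33.6 CPM, AfaR 28.8 and 58.9 CPM and ErlR 20.3 and 21.8 CPM. The AfaR libraries spanned the parental ones, while both ErlR libraries were lower. The log2 fold change was 0.22 in FaDu AfaR (adjusted p = 0.594), and it was 0.64 (adjusted p = 0.0338) without AfaR replicate 1 and -0.38 without AfaR replicate 2. In FaDu ErlR it was -0.83 (adjusted p = 0.128), which passed with DESeq2 (adjusted p = 0.0497), without the filter on low counts (2.22e-05) and with only the 4 libraries compared (0.0285). The FaDu effect exceeded the Cal27 effect by 2.10 for afatinib (adjusted p = 0.0135) and by 1.92 for erlotinib (adjusted p = 0.0261, edgeR). The first was lost in 3 and the second in 5 of the 8 fits that left out a library, as low as 1.51 without FaDu AfaR replicate 2 and 1.43 without Cal27 ErlR replicate 1. FaDu AfaR exceeded FaDu ErlR by 1.05 (adjusted p = 0.0351, edgeR), which fell to 0.45 without AfaR replicate 2 and did not pass without either ErlR library (adjusted p = 0.113 and 0.125) or with only the 4 libraries compared (adjusted p = 0.0537).

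FGFR2 (ENSG00000066468, chromosome 10, 121478334 to 121598458, minus strand) moved in opposite directions in the Cal27 models. Its libraries had 20.6 and 23.8 CPM in Cal27 parental, 16.8 and 11.8 CPM in AfaR and 34.9 and 43.3 CPM in ErlR. The 3 groups did not overlap. FGFR2 fell by 0.63 in Cal27 AfaR (standard error 0.206, adjusted p = 0.0377, edgeR) and rose by 0.79 in Cal27 ErlR (standard error 0.201, adjusted p = 0.0185, edgeR). The AfaR call was lost without Cal27 parental replicate 2 (-0.52, adjusted p = 0.133) or AfaR replicate 2 (-0.39, adjusted p = 0.226) and with a replicate block (adjusted p = 0.0521), and the ErlR call without Cal27 parental replicate 1 (0.70, adjusted p = 0.0605) or ErlR replicate 2 (0.66, adjusted p = 0.0695). The difference of AfaR from ErlR was -1.42 (adjusted p = 0.000495, edgeR) and held in all 4 such fits. In FaDu the libraries had 32.9 and 33.3 CPM in parental, 38.7 and 47.1 CPM in AfaR and 39.2 and 20.1 CPM in ErlR, and neither model passed (0.35 and -0.17, adjusted p = 0.347 and 0.767). FGFR1, the fibroblast growth factor receptor typical of mesenchymal cells and no member of the 10, rose from 0.990 and 0.933 CPM to 67.8 and 65.1 CPM in Cal27 AfaR and from 3.25 and 2.81 CPM to 13.6 and 11.4 CPM in FaDu AfaR.

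EPHA2, a receptor for ephrin-A ligands on neighbouring cells, fell in both FaDu models and rose in Cal27 AfaR. EPHA2 (ENSG00000142627, chromosome 1, 16124337 to 16156087, minus strand) had 314 and 305 CPM in FaDu parental, 214 and 209.8 CPM in AfaR and 227 and 219 CPM in ErlR cells. Both parental libraries lay above all 4 resistant ones. The log2 fold changes were -0.57 (standard error 0.0964, adjusted p = 0.00768) and -0.48 (standard error 0.0964, adjusted p = 0.0304, edgeR). The first was lost without FaDu parental replicate 1 (-0.55, adjusted p = 0.0906) and under ERCC scaling (-0.39, adjusted p = 0.0963). The second was lost in all 4 fits that left out a library (adjusted p from 0.0736 to 0.220) and was 0.0075 under ERCC scaling, where the median of all genes shifted by 0.49. In Cal27 the parental libraries had 319.6 and 236 CPM, AfaR 402 and 478 CPM and ErlR 404 and 340.1 CPM. All 4 resistant libraries were above the parental ones. The rise in Cal27 AfaR was 0.67 (standard error 0.175, adjusted p = 0.0148, edgeR), which was lost without Cal27 parental replicate 2 (0.46, adjusted p = 0.114) or AfaR replicate 2 (0.55, adjusted p = 0.0978). In Cal27 ErlR the value was 0.40 (adjusted p = 0.121), and it passed without Cal27 parental replicate 1 (0.65, adjusted p = 0.0418) and without the filter on low counts (0.42, adjusted p = 0.0394). The effect in FaDu was below that in Cal27 by 1.21 for afatinib (adjusted p = 0.00168) and by 0.89 for erlotinib (adjusted p = 0.0113, edgeR). The erlotinib difference was lost without Cal27 ErlR replicate 1 (-0.75, adjusted p = 0.0511) and under ERCC scaling (-0.43, adjusted p = 0.196). EFNA1, a ligand of EPHA2, fell from 50.9 and 72.9 CPM in Cal27 parental to 29.8 and 22.9 CPM in AfaR and to 9.52 and 12.7 CPM in ErlR cells.

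DDR1 (ENSG00000204580, chromosome 6, 30876421 to 30900156, plus strand) is a receptor kinase that binds collagen. It fell in Cal27 ErlR. The libraries had 551 and 667 CPM in Cal27 parental, 751 and 477 CPM in AfaR and 320.4 and 382 CPM in ErlR. The AfaR libraries spanned the parental ones and the ErlR libraries lay below. The log2 fold change in Cal27 ErlR was -0.82 (standard error 0.215, adjusted p = 0.0210, edgeR), which was lost without Cal27 parental replicate 2 (-0.66, adjusted p = 0.0992) or ErlR replicate 1 (-0.69, adjusted p = 0.117). In Cal27 AfaR it was 0.01 (adjusted p = 0.966). In FaDu the parental libraries had 221 and 229 CPM, AfaR 246 and 340.0 CPM and ErlR 223 and 288 CPM, and neither model passed (0.36 and 0.17, adjusted p = 0.152 and 0.610). Under ERCC scaling the FaDu ErlR value was 0.64 and passed (adjusted p = 0.0111, edgeR), or 0.16 above the shifted median of all genes. DDR1 passed in FaDu AfaR without AfaR replicate 1 (0.57, adjusted p = 0.0399), without the filter on low counts (0.37, adjusted p = 0.0238) and under ERCC scaling (0.55, adjusted p = 0.0400). The erlotinib effect in FaDu exceeded that in Cal27 by 0.98 (adjusted p = 0.0408, edgeR), a call lost in 5 of 8 fits that left out a library, with adjusted p up to 0.138.

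The AfaR and ErlR populations were compared directly in each line. In FaDu, AfaR exceeded ErlR in 2 of the 10 genes (INSR and FGFR3) and was below it in none, against 8.06% and 7.65% of all genes. Both differences were over 1, where 4.45% of all genes were higher and 1.5% lower by that much, and the libraries were apart for 3 of the 10 (60% of all genes). At an unadjusted p under 0.05 the lower count was also 0, and DESeq2 gave 0 as well. Over all 15092 genes, in both directions together, DESeq2 passed 2720 and edgeR 2371. In Cal27, AfaR exceeded ErlR in 4 (INSR, GAS6, DDR1 and AXL) and was below it in 2 (MST1R and FGFR2), against 26.5% and 23.2%. Over 1 were 1 (INSR) and 2, against 18.2% and 8.86%, and the libraries were apart for 8 (76.7% of all genes). The GAS6 difference was 0.94 (adjusted p = 0.00103), the DDR1 difference 0.83 (adjusted p = 0.0102) and the AXL difference 0.67 (adjusted p = 0.0146, edgeR). The AXL call was lost without Cal27 AfaR replicate 2 (adjusted p = 0.0807), ErlR replicate 2 (0.0669) or, by a narrow margin, ErlR replicate 1, and the DDR1 call without AfaR replicate 1 (0.46, adjusted p = 0.0919) or ErlR replicate 1 (adjusted p = 0.0634). FGFR3 had 0.91 (adjusted p = 0.0797), which rose to 1.68 (adjusted p = 0.00502) without ErlR replicate 2 and passed with DESeq2 (adjusted p = 0.0443) and without the filter on low counts (adjusted p = 0.00117).

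The parental lines differed in most of the 10 genes. In parental Cal27 cells 5 of the 10 genes were higher (GAS6, DDR1, AXL, MET and INSR) and 2 lower (MST1R and IGF1R) than in parental FaDu cells, against 28.7% and 26.8% of the 16240 genes tested. All 5 of the higher and 0 of the lower genes differed by over 1, against 19.1% and 12.5%, and the libraries were apart for 8 of the 10 (79.5% of all genes). The lines grew in different media (FaDu in EMEM, Cal27 in DMEM), and line and medium cannot be told apart. Library depth and the share of spike-ins differed between the parental lines as well, as given above, and cannot be told apart from line either. GAS6 was 25.6-fold higher in Cal27 (log2 fold change 4.68, standard error 0.208, adjusted p = 8.05e-09, edgeR). DDR1 was higher by 1.44, AXL by 1.32 and MET by 1.22 (adjusted p = 0.000123, 0.000115 and 4.25e-06, edgeR). MST1R and IGF1R were lower in Cal27 (log2 fold change -0.76, adjusted p = 0.00204, and -0.66, adjusted p = 0.00494, edgeR). Both passed no longer under ERCC scaling, where the median of all genes shifted by 0.62 (-0.18 and -0.07, adjusted p = 0.376 and 0.774). Relative to that median they stood at -0.80 and -0.69. IGF1R was also lost without Cal27 parental replicate 1 (-0.51, adjusted p = 0.0541). INSR was higher by 1.15 (adjusted p = 0.0250), which fell to 0.40 without Cal27 parental replicate 2 (adjusted p = 0.443) and to 0.86 without FaDu parental replicate 1 (adjusted p = 0.167), and which did not pass with only the 4 libraries compared (adjusted p = 0.0705). FGFR2, FGFR3 and EPHA2 did not pass (-0.58, -0.24 and -0.16, adjusted p = 0.0761, 0.580 and 0.383). FGFR2 passed without the filter on low counts (-0.57, adjusted p = 0.00675) and with only the 4 libraries compared (-0.58, adjusted p = 0.00625). Under ERCC scaling EPHA2 turned to 0.42 and passed (adjusted p = 0.0386), and FGFR3 turned to 0.34 (adjusted p = 0.406) and FGFR2 to 0.0082 (adjusted p = 0.983). All 3 of these values lay below the shift of the median.

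Per kilobase of exon, the order of levels in FaDu parental cells began with EPHA2 (74.4 CPM per kilobase), followed by AXL (33.7), MET (31.2) and DDR1 (24.7). Then came FGFR3 (7.68), IGF1R (6.44), MST1R (6.05) and FGFR2 (4.42), and last GAS6 (1.65) and INSR (0.135). The libraries of AXL and MET overlapped, and so did those of IGF1R and MST1R. In Cal27 parental cells AXL (83.9), MET (72.8), EPHA2 (66.8) and DDR1 (66.8) led, and their neighbours in the order overlapped. GAS6 followed at 42.3, and FGFR3 (6.49), IGF1R (4.08), MST1R (3.57), FGFR2 (2.97) and INSR (0.301) were far lower. In the resistant Cal27 cells AXL stayed in first place, at 263 ± 20.0 CPM per kilobase in AfaR and 168 ± 5.29 in ErlR (SD, n = 2), followed by EPHA2 at 106 ± 12.9 and 89.4 ± 10.8. INSR was in the tenth place in 5 of the 6 groups and in the eighth in Cal27 AfaR, at 2.39 ± 0.351. FGFR3 took the tenth place there, at 1.78 ± 0.621.

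**Figure D3:**
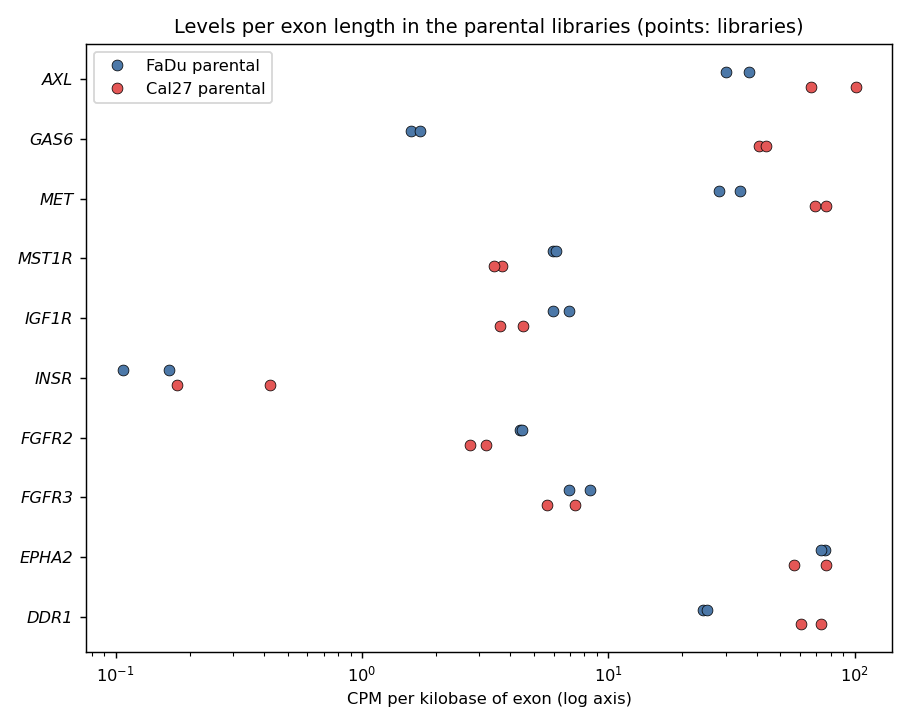
CPM per kilobase of exon (x axis, log scale) of the 10 genes (y axis) in the parental cells, with a point for each library. GAS6 shows the widest gap between the lines (1.65 and 42.3 on average), and EPHA2 the least separation among the abundant genes (74.4 and 66.8).

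The differences between the lines in the effect of resistance were tested as interactions. For afatinib, the FaDu effect was above the Cal27 effect for 2 of the 10 genes (FGFR3 and MET) and below it for 3 (AXL, EPHA2 and GAS6), against 10.5% and 8% of all genes. Over 1 in size were 1 (FGFR3) and 3, against 7.57% and 4.76%. For erlotinib it was above for 2 (FGFR3 and DDR1) and below for 2 (MST1R and EPHA2), against 9.8% and 8.8%, with 1 (FGFR3) and 1 (MST1R) over 1, against 7.51% and 3.36%. MET differed by 0.62 for afatinib (adjusted p = 0.0240, edgeR), which was lost in 4 of 8 fits that left out a library (0.49 without FaDu parental replicate 2). FGFR2 had 1.01 and -0.97 (adjusted p = 0.0780 and 0.0837), and both passed without the filter on low counts (adjusted p = 0.00114 and 0.00177).

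The rest of the pathway was followed in 4 lists: 29 other ligands, 25 proteins that process or hold ligands, 32 adaptors and negative regulators, and 45 other receptor tyrosine kinases. Cal27 AfaR, the model with the most changes over all genes, also had the most in these lists. There, where 19.5% of all genes were higher and 18.2% lower, 6 of 12 ligands tested were higher and 2 lower, with a median log2 fold change of 0.37, and 8 of 21 processing genes were higher and 7 lower (median 0.03). Among adaptors and negative regulators 9 of 31 were higher and 5 lower (median 0.09), and among other receptor tyrosine kinases 10 of 24 were higher and 4 lower (median 0.30). The genes with the largest changes included IGFBP5 (4.69), IGFBP6 (3.04) and PAPPA (2.50), which bind insulin-like growth factors or cleave their binding proteins. FGFBP1 (-4.39), a carrier that frees fibroblast growth factors from the matrix, fell, as did the proteases ST14 (-2.75) and PCSK6 (-2.72). The phosphatase PTPRJ (2.28), GRB10 (1.90), an adaptor that dampens insulin receptor signalling, and LRIG1 (1.60), which lowers receptor levels at the membrane, rose. The ubiquitin ligase CBLC (-2.89), GRB7 (-2.15) and the docking protein GAB2 (-1.79) fell. Among the receptors FGFR1 (6.10), PDGFRB (2.91), itself on the fibroblast marker list, and ROR1 (1.30) rose, while EPHA1 (-3.24) and FGFR4 (-1.48) fell. All of these had adjusted p of 0.0170 or less (edgeR).

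In Cal27 ErlR 12.3% of all genes were higher and 15.3% lower. Of 12 ligands 3 passed, each lower (median -0.36), and 2 of 21 processing genes were higher and 9 lower (median -0.69). Of 31 adaptors and negative regulators 5 were higher and 4 lower (median -0.17), and of 24 other receptors 3 were higher and 7 lower (median -0.25). The median over all genes was -0.03. IGFBP3, the main carrier of insulin-like growth factors in serum, fell from 2251 and 6719 CPM to 151 and 94.2 CPM (-5.22, adjusted p = 0.000178). EFNA1 fell by 2.50 and GAB2 by 2.63 on the log2 scale, EPHB2 had -1.08, and LRIG2 rose by 1.52 (adjusted p from 0.000154 to 0.00718, edgeR). PTPRJ (-1.18) and GRB10 (-1.06), which rose in Cal27 AfaR, fell here. PCSK6 fell in this model as well (-1.15).

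The FaDu models had fewer changes over all genes and in these lists. In FaDu AfaR, where 10.4% of all genes were higher and 7.49% lower, 3 of 14 ligands were higher and 1 lower, 4 of 19 processing genes passed and were higher, 3 of 31 adaptors and negative regulators higher and 1 lower, and 5 of 25 other receptors higher and 1 lower. The medians were between 0.08 and 0.23. LRIG1 (2.83), FGFR1 (2.03), PROS1 (1.97), FGF2 (1.70) and ROR1 (1.70) rose. IGF2 (-1.91), a ligand of IGF1R, fell from 8.20 and 9.30 CPM to 2.33 and 2.39 CPM. In FaDu ErlR, against 2.58% and 1.6% of all genes, 2 of 14 ligands were higher and 1 lower, and 1 gene passed in each of the other lists. IGF2 fell here by 2.05 and the adaptor SH2B1 by 1.05 (adjusted p = 0.0120 and 0.0432, edgeR).

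**Figure D4:**
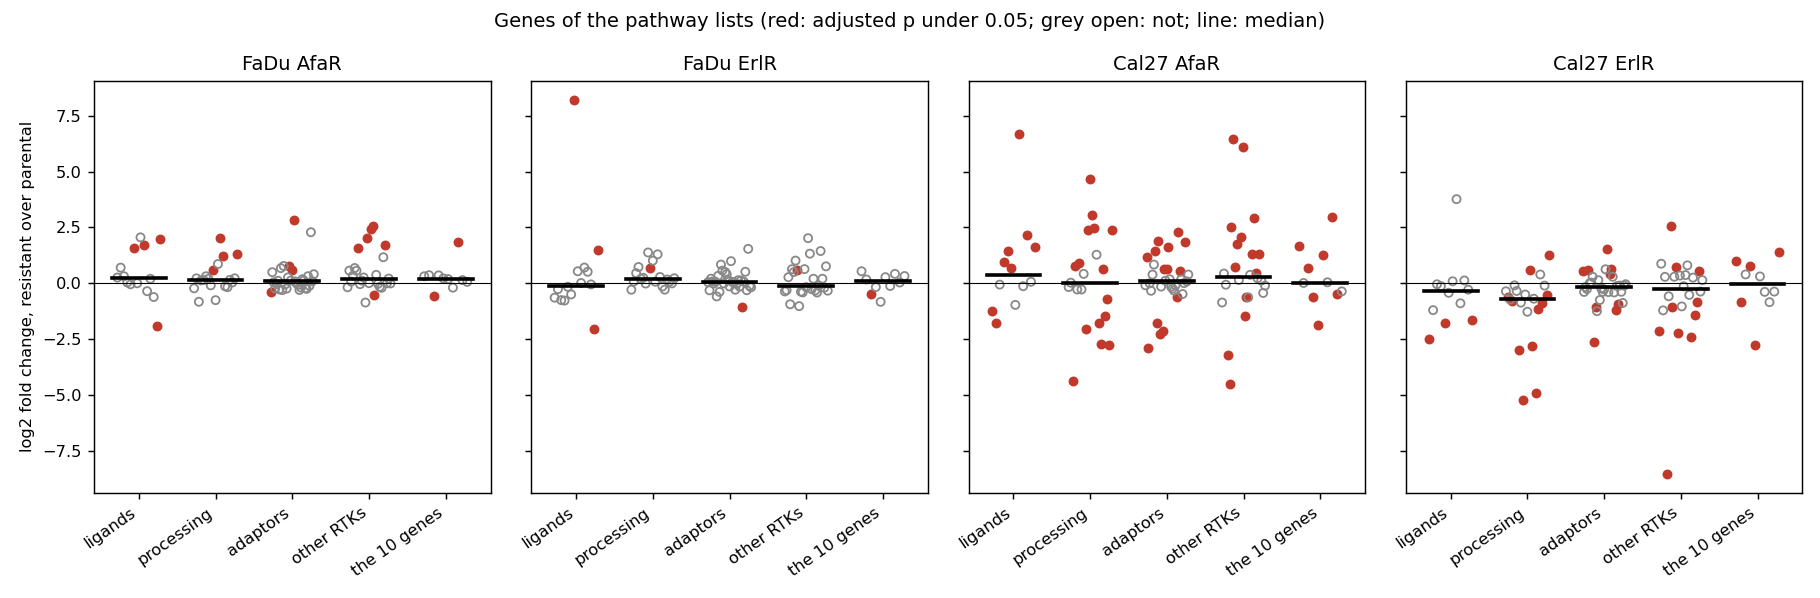
Log2 fold change against parental cells (y axis) of the genes tested in the 4 pathway lists and of the 10 genes (x axis), in a panel for each model. Filled red points passed at an adjusted p under 0.05, open grey points did not, and black lines are medians. Red points are most frequent in Cal27 AfaR, and the processing genes of Cal27 ErlR lie lowest, with a median of -0.69.

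Each gene was set beside the 10 tested genes on either side of it on the chromosome. In Cal27 AfaR the neighbours of INSR had a median log2 fold change of -0.22 against 2.98 for INSR, and those of FGFR3 had 0.48, with 10 of 20 higher, against -1.86 for FGFR3. These genes moved against their surroundings. The neighbours of AXL had 0.34, and those of GAS6 had 0.52, with 7 of 17 higher and 2 lower, against 1.65 and 1.25. Of all genes tested in this model, 19.5% were higher and 18.2% lower. In Cal27 ErlR the neighbours of FGFR3 had -0.32, those of AXL -0.15 and those of DDR1 0.20, against -2.77, 0.98 and -0.82. The neighbours of MST1R there shared its direction, as given above. Those of INSR had -0.40 against -0.85, with 0 of 20 higher and 9 lower, where 12.3% and 15.3% of all genes were. Those of MET had -0.46 against -0.37, those of IGF1R -0.25 against -0.38 and those of GAS6 0.24 against 0.31. For FGFR2 the values were 0.06 against 0.79 and for EPHA2 -0.31 against 0.40. INSR, MET, IGF1R, GAS6 and EPHA2 did not pass in this model.

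**Figure D5:**
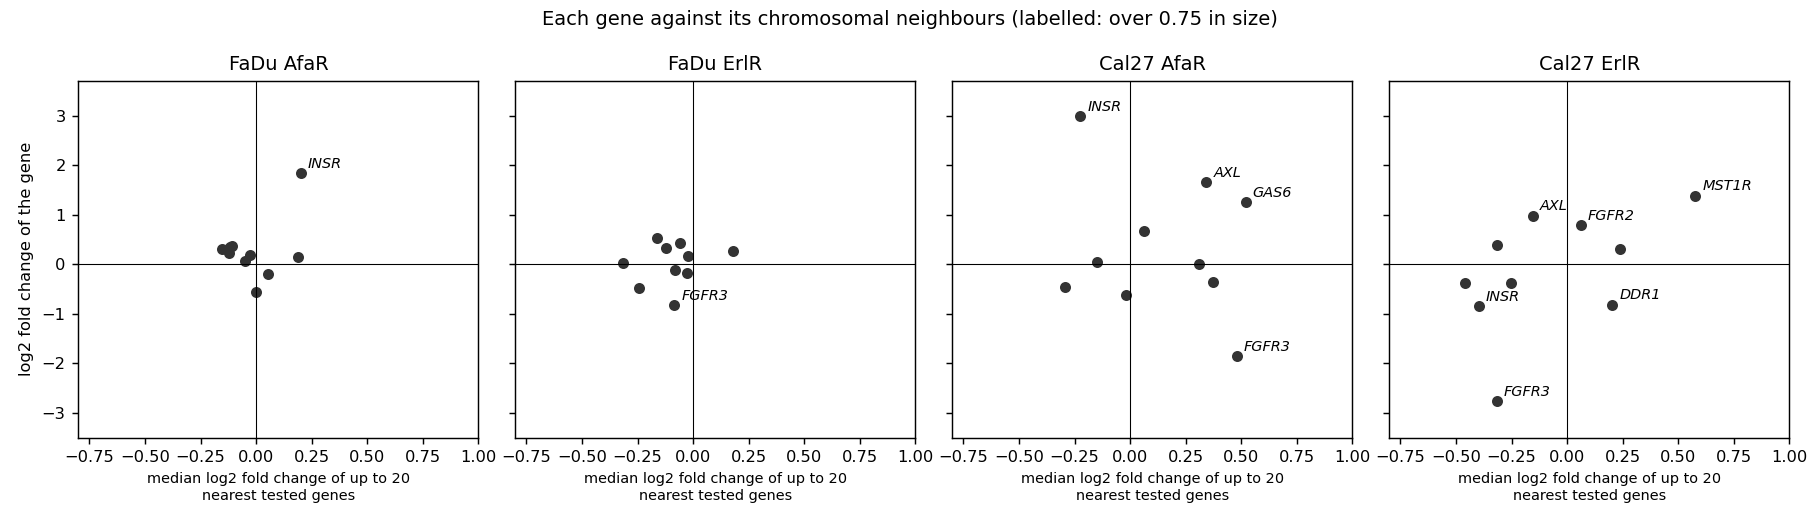
Log2 fold change of each of the 10 genes (y axis) against the median of its nearest tested genes on the chromosome (x axis), in a panel for each model. Names are given where the gene changed by over 0.75 in size. INSR in Cal27 AfaR (2.98 against -0.22) lies farthest from its neighbours.

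GAS6 had the widest range of the 10 genes over the 6 groups, 5.78 on the log2 scale. The genes whose group means followed it most closely were SMARCA1, ZXDB, NBDY, WDR27 and PARP12, with Pearson's r from 0.997 to 1.000 over 6 groups among 5983 genes compared. Over so few points, which share the contrast between lines, such values are a description. Among the 10 genes AXL and GAS6 were most alike (r = 0.94), followed by GAS6 and MET (0.90), MET and DDR1 (0.88) and MST1R and FGFR2 (0.87). IGF1R ran opposite to GAS6 (-0.90) and MET (-0.88), and AXL opposite to FGFR3 (-0.86). INSR and IGF1R, the closest relatives in the set, had -0.20, and FGFR2 and FGFR3 had 0.23.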

How the data were processed

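The authors trimmed reads with Trimmomatic 0.36, aligned them to GRCh38 with STAR 2.5.2b and counted them per Ensembl gene with featureCounts (Subread 1.5.2), per the submitters' processing notes. The annotation release and the strand setting are not given in the sources used here. The deposited values used are raw counts on 58051 genes and 92 ERCC spike-ins in 12 libraries. The spike-ins took 3.86% to 5.82% of counts and stayed out of library sizes. The authors also deposited normalized counts, which were not used.

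Symbols came from the reference name table, and 56948 gene identifiers were found in GENCODE release 44. The main test was the quasi-likelihood test of edgeR 4.0.16 (R 4.3.3) on TMM-normalized counts kept by filterByExpr, with Benjamini-Hochberg adjustment over all genes, in a fit of 6 libraries per line with 3 residual degrees of freedom. The comparison of parental cells and the interactions used a fit of all 12. The scripts were tested on simulated data.

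The 10 genes, the lists and the tests were chosen with earlier results of these data known. All 10 genes are named throughout. Of each list and model, up to 3 rises and 3 falls are named, among genes with an adjusted p under 0.05, a log2 fold change over 1 in size and a mean of at least 5 CPM. Alternatives were DESeq2 1.42.0, 2 other filters, ERCC scaling, fits of only the libraries compared, a replicate block and leaving out each library. Likeness used the log2 of CPM plus 1 of each library, averaged over the libraries of a group.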

Additional observations from a re-analysis of the deposited data

Results flagged for a closer look

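Of the 20 tests of whether a resistance effect differed between the lines, 9 passed at an adjusted p under 0.05 (edgeR, interaction terms), and each is the FaDu effect minus the Cal27 effect on the log2 scale. For afatinib they were AXL (-1.32), GAS6 (-1.04), MET (0.62), FGFR3 (2.10) and EPHA2 (-1.21). For erlotinib they were MST1R (-1.07), FGFR3 (1.92), EPHA2 (-0.89) and DDR1 (0.98). Of all 16240 genes tested, the FaDu effect was above in 10.5% and below in 8% for afatinib, and in 9.8% and 8.8% for erlotinib. AXL and EPHA2 for afatinib and MST1R for erlotinib passed in all 8 fits that left out a library, whereas MET did in 4, GAS6 in 5, FGFR3 in 5 for afatinib and 3 for erlotinib, EPHA2 for erlotinib in 7 and DDR1 in 3. With libraries scaled to the ERCC spike-ins, GAS6 (-0.89, adjusted p = 0.0599) for afatinib and MST1R (-0.62, adjusted p = 0.0705) and EPHA2 (-0.43, adjusted p = 0.196) for erlotinib did not pass. EPHA2 and FGFR3 were flagged for both drugs. EPHA2 fell in both FaDu models and was higher in all 4 resistant Cal27 libraries. Its FaDu ErlR value was 0.0075 under ERCC scaling, and its rise in Cal27 ErlR did not pass (adjusted p = 0.121, edgeR).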

How the results depend on the processing

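The log2 fold changes and calls of the 10 genes in 9 comparisons gave 90 results. With DESeq2 86 kept their direction and side of the threshold and 4 passed anew, without the filter on low counts 80 did and 10 passed anew, and with at least 10 counts in every library 88 did, 1 passed anew and 1 reversed (GAS6, erlotinib difference between lines, 0.018). With only the libraries compared 85 did, 3 passed anew and 2 were lost. No label ties same-numbered libraries of different groups. Their deviations correlated with r from -0.17 to 0.10, which with 2 libraries a group cannot tell whether they were prepared together. With the replicate block 89 results did and 1 call was lost (FGFR2 in Cal27 AfaR, adjusted p = 0.0521), so that 2 genes were lower there, and the cause was not tested.

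ERCC scaling moved most, since it shifted the median of all genes by 0.18 in FaDu AfaR, 0.49 in FaDu ErlR, 0.62 between parental lines, -0.29 for FaDu AfaR against ErlR, and 0.18 and 0.49 in the interactions. Under it 65 results did not change, 9 passed anew, 6 were lost and 10 reversed: IGF1R (0.37), FGFR2 (0.36) and EPHA2 (0.0075) in FaDu ErlR, MET (-0.19) and DDR1 (-0.095) between FaDu AfaR and ErlR, FGFR2 (0.0082), FGFR3 (0.34) and EPHA2 (0.42, adjusted p = 0.0386) between parental lines, and AXL (0.035) and GAS6 (0.44) in the erlotinib difference between lines. Its counts that moved by over 1.5 times were 2 higher and 0 lower in FaDu AfaR, 5 and 0 in FaDu ErlR, 1 lower for FaDu AfaR against ErlR, 0 lower between parental lines, and 4 higher and 0 lower for the erlotinib difference. Over all genes, in both directions together, ERCC scaling passed 2313 in FaDu AfaR, 5747 in FaDu ErlR and 4259 for FaDu AfaR against ErlR. The main test passed 2694, 631 and 2371 of these 15092. Of 16240 genes, ERCC scaling passed 9631 between parental lines and 4048 for the erlotinib difference, and the main test 9022 and 3021. Under the other alternatives, leaving out libraries aside, the counts that moved by over 1.5 times were 2 higher in FaDu AfaR without the filter, 1 higher and 2 lower in FaDu ErlR with DESeq2 and without the filter, 2 lower there with only the libraries compared, and 1 higher for FaDu AfaR against ErlR with only the libraries compared. Over all genes, 3686 of 28701 passed in FaDu AfaR and 1728 in FaDu ErlR without the filter. DESeq2 passed 1119 of 15092 in FaDu ErlR. With only the libraries compared, 699 of 14163 passed in FaDu ErlR and 1586 of 14564 for FaDu AfaR against ErlR. The other counts of the 10 genes moved by at most 1 gene, among them 6 higher between parental lines and 2 lower for the afatinib difference under ERCC scaling. The cause of these was not tested.

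In every comparison, leaving out 1 library left fewer genes passing over all genes than the main test. A call lost in such a fit cannot be told apart from that fall. Results that reversed in such a fit spanned, in FaDu AfaR, GAS6 -0.15 to 0.45, MST1R -0.084 to 0.19 and FGFR3 -0.38 to 0.64, in FaDu ErlR, MET -0.096 to 0.17, FGFR2 -0.73 to 0.23 and DDR1 -0.025 to 0.34, in Cal27 AfaR, IGF1R -0.17 to 0.24 and DDR1 -0.35 to 0.32, between FaDu AfaR and ErlR, AXL -0.45 to 0.043, GAS6 -0.43 to 0.18, IGF1R -0.15 to 0.0083 and DDR1 -0.053 to 0.40, between parental lines, EPHA2 -0.39 to 0.045, and in the erlotinib difference, GAS6 -0.19 to 0.086. A lone library left in a group is assumed to vary like the others. With 2 libraries a group, and INSR at 23 to 36 reads in FaDu parental and both ErlR groups, the INSR values there rest on few reads. The Cal27 parental libraries, the baseline of both Cal27 models, had 32 and 76 reads of INSR.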

Other observations

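The pathway lists were also compared between the parental lines, where 28.7% of all genes were higher in Cal27 and 26.8% lower. Of the 15 other ligands tested, 5 were higher in parental Cal27 than in parental FaDu cells and 2 lower, and of 21 processing genes 10 were higher and 4 lower. Among 31 adaptors and negative regulators 16 were higher and 6 lower, with a median log2 fold change of 0.52, compared with 0.04 over all genes. Of 29 other receptor tyrosine kinases 7 were higher and 7 lower. EFNA1, a ligand of EPHA2, was higher in Cal27 by 2.39, and FGFR1 was lower, with -1.65 (adjusted p = 6.01e-06 and 9.73e-05, edgeR).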
